A study of Mus musculus with 36 samples.

Results

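Unloading of the hind limb was followed in the soleus of young mice, in 4 unloaded muscles against 9 control muscles, which are 13 of the 36 libraries of the study. The libraries were chosen by their labels alone: the 4 young mice unloaded for 10 days and the 9 young mice kept as controls, with the reads of all transcripts that carry 1 gene symbol added together. All mice were male C57BL/6J with no transgene named in the labels, each library came from 1 mouse, and the young mice were 6 months old. The unloaded mice had their hind limbs lifted from the floor for 10 days, and all mice fasted briefly before the muscles were taken in the late morning. The remaining libraries come from young mice that bore weight again for 3 days after unloading, and from old mice of 22 to 24 months in the same 3 conditions. The old control mice (9) and the old unloaded mice (6) are used here for a comparison between the ages.

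The soleus is a small calf muscle that holds posture, and in the mouse it is built of slow fibres and of fast oxidative fibres, both dense with mitochondria. When it no longer bears weight it shrinks, and its fibres shift towards faster and less oxidative types. Nuclear genes of respiration are driven by ETS-family factors, NRF1, YY1 and the estrogen-related receptors, with the coactivator encoded by Ppargc1a.

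RNA depleted of ribosomal RNA was sequenced as single reads of 50 bases. Reads assigned to genes numbered 32.2 to 35.1 M in the 4 unloaded libraries and 31.97 to 35.96 M in the 9 control libraries (33.9 ± 1.21 SD in controls against 33.95 ± 1.43, exact two-sided permutation p = 0.965, n = 4 and 9). Levels are reads per M reads of the library (CPM), with the library size scaled by TMM as in the fit. They are given as mean ± SD over mice, and changes are log2 fold changes, unloaded over control, ± SE. A gene was called when its p, adjusted over all 15031 genes tested of 21156 in the table, was under 0.05 in edgeR's quasi-likelihood test, and "rose" or "fell" is used of called genes only. Of 10 skeletal muscle markers all were detected, and together they held 314400.0 to 346400.0 CPM in controls and 283600.0 to 313400.0 CPM in unloaded muscles. The largest component of variation (50.3%) put the 4 unloaded libraries at 26.6 to 34.7 and the controls at -19.3 to -7.2, and the next (10.3%) put control libraries 1 to 4 on 1 side and controls 5 to 9 on the other. Against controls 1 to 4 alone 5602 genes were called, and against controls 5 to 9 alone 4808, with 0 genes called in the opposite direction to the full comparison in either. In a fit of the 13 young libraries alone, without the other groups, 6855 genes were called (3309 higher and 3546 lower). The liver gene Alb was at 39.6 CPM in unloaded library 2 and at 0.242, 8.54 and 9.29 CPM in the other unloaded libraries, against 0.0308 to 8.32 CPM in controls. These are whole muscles, so fewer cells of a type and less RNA per cell cannot be told apart. The p-values measure the spread between mice that the labels list as separate.

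The response reached 40.8% of the genes tested: 2869 genes rose (19.1%) and 3261 fell (21.7%). Most of the called changes were small. The median rise was 0.38, an increase of 30.5%, and the median fall was -0.44, a decrease of 26.5%. Of the called genes, 1209 (19.7%) changed by less than 0.25 on the log2 scale, 2568 (41.9%) by 0.25 to 0.5, 1758 (28.7%) by 0.5 to 1, 518 (8.45%) by 1 to 2 and 77 (1.26%) by 2 or more. Tested against a change of 1.2-fold rather than of 0 (edgeR's glmTreat), 2361 genes were called (15.7%), 954 higher (6.35%) and 1407 lower (9.36%). Against 1.1-fold there were 4354, and against 1.5-fold 412 (139 higher and 273 lower). Over all genes tested the median change was 0.00, a value that the scaling of the libraries holds near 0, and the middle 50% of genes lay between -0.24 and 0.23.

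**Figure D1:**
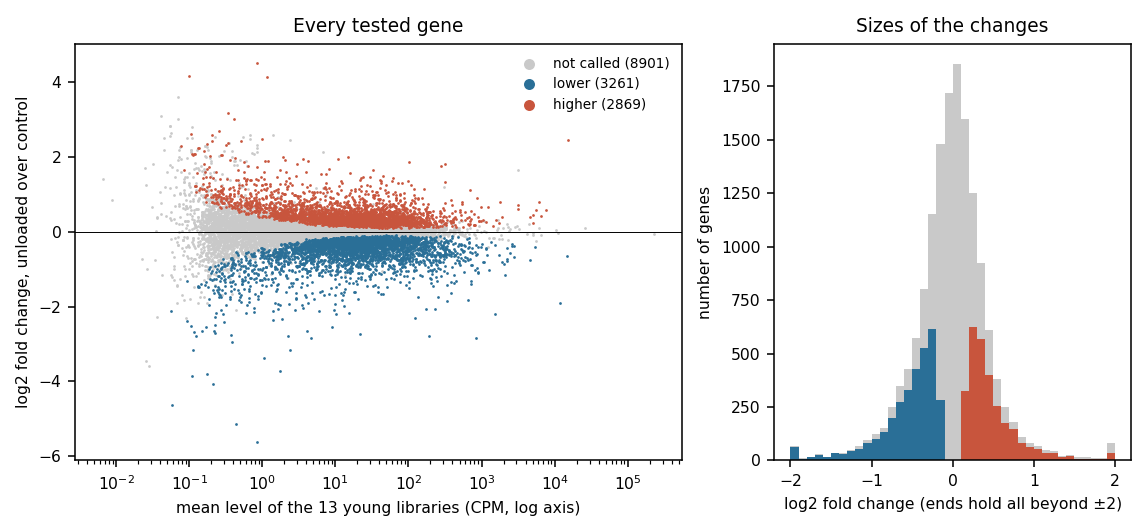
Left, log2 fold change of each gene tested (y axis, unloaded over control young soleus) against its mean level over the 13 young libraries (x axis, CPM, log scale), 1 point per gene, coloured by call. Right, number of genes by size of the change, in stacked bars of lower, higher and uncalled (grey) genes, with the end bars holding all beyond 2 log2 units. The 2869 higher and 3261 lower genes lie mostly within 1 log2 unit of 0.

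All 4 unloaded muscles lay outside the range of the 9 controls for 4140 genes (27.5%), above it for 1849 (12.3%) and below it for 2291 (15.2%). Of the 6130 called genes 3990 (65.1%) had no overlap between the groups, as had 150 genes that were not called. The share of genes called rose with level, from 17.6% of genes under 1 CPM to 63.2% of those at 100 to 1000 CPM, and was 56.4% of the 78 genes over 1000 CPM. The precision rose as well: the 95% interval of a change reached 0.64 to either side for the median gene under 1 CPM and 0.15 for the median gene of at least 10 CPM. For genes of low level the interval of an uncalled change was thus often wider than the median called change.

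In total reads, few genes carried the gain. The means of the genes that were higher added up to a gain of 101190 CPM and those of the genes that were lower to a loss of 117540 CPM. As the levels are scaled, gain and loss need not match. In all, 11 genes made 50% of the gain whereas 51 genes were needed for 50% of the loss. Myh1, the IIx myosin heavy chain gene, was at 23453, 35771, 42620.0 and 37204 CPM in the 4 unloaded muscles and at 4415 to 9265 (median 5962) CPM in controls. Every unloaded muscle was above every control, and this gene made 28.0% of the whole gain. Atp2a1, the calcium pump of the fast-fibre sarcoplasmic reticulum, followed among called genes (4981 ± 524 to 8588 ± 1064 CPM), with the muscle creatine kinase gene Ckm (6628 ± 681 to 9975 ± 1132 CPM). Myh4, the IIb heavy chain gene, was the second gain in reads but was not called: it was at 3443, 7443, 5507 and 7003 CPM in unloaded muscles and ran from 73.2 to 5952 CPM in controls. Controls 4, 7 and 9 lay in the range of the unloaded muscles and the other 6 controls were below it. The largest called losses were those of Myh2, of the skeletal actin gene Acta1 (16788 ± 1168 to 10714 ± 724 CPM) and of Rn45s, the precursor of ribosomal RNA (5221 ± 2287 to 3097 ± 428 CPM). Rn45s is a residue of a depleted RNA, was at 3562, 3252, 2545 and 3028 CPM in unloaded muscles and overlapped with controls (3091 to 8978). Its call was lost without unloaded mouse 3 or 4, or control mouse 2 (log2 fold change -0.74 to -0.62, edgeR adjusted p = 0.0517 to 0.0857). Lars2, the mitochondrial leucyl-tRNA synthetase gene, was highest in the same 4 controls as Rn45s (1, 2, 7 and 8), so the called value of Lars2 (-1.63 ± 0.48) moved with the ribosomal residue, whose part in it was not tested.

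The thick and thin filament genes of slow fibres fell in part. Of 16 slow contractile genes tested 9 fell and 1 rose. Pln, which encodes phospholamban, the brake of the slow calcium pump, was at 3.90, 3.22, 3.78 and 4.09 CPM in unloaded muscles and at 6.51 to 17.9 (median 10.3) CPM in controls. All 4 unloaded muscles were below all controls, and Pln fell by 1.51 ± 0.37. The slow myosin light chain genes Myl3 (-1.16 ± 0.12) and Myl2 (-0.88 ± 0.18), the slow troponin genes Tnni1 (-0.54 ± 0.16) and Tnnc1 (-0.40 ± 0.15), the stretch-responsive gene Ankrd2 (-1.150 ± 0.23) and the calcium store gene Casq2 (-0.96 ± 0.14) fell too. The slow heavy chain gene Myh7 (-0.04 ± 0.14), the slow troponin T gene Tnnt1 (-0.20 ± 0.13) and the slow calcium pump gene Atp2a2 (-0.08 ± 0.13) were not called. Mybpc1, slow myosin-binding protein C, rose by 0.22 ± 0.07, a call lost without unloaded mouse 4 (log2 fold change 0.17, edgeR adjusted p = 0.0622). The call of Tnnc1 was lost without unloaded mouse 2 or 3, or control mouse 8 (log2 fold change -0.39 to -0.29, edgeR adjusted p = 0.0588 to 0.146). Slow and fast markers thus did not move as blocks.

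Of 16 fast contractile genes 5 rose and 4 fell. Beside Myh1 the myosin light chain kinase gene Mylk2 (1.79 ± 0.17) and Atp2a1 (0.79 ± 0.19) rose, with no overlap between groups. Among those that fell were the IIa heavy chain gene Myh2 (-1.90 ± 0.25), the fast light chain gene Myl1 (-0.62 ± 0.13) and the fast calsequestrin gene Casq1 (-0.50 ± 0.09). The fast troponin genes Tnni2 (0.15 ± 0.10) and Tnnt3 (0.09 ± 0.10) and the fast regulatory light chain gene Mylpf (0.10 ± 0.10) were not called. Myosin heavy chain genes are near-identical in stretches, and reads of this length may be divided between them. Myh14, a non-muscle myosin heavy chain gene, rose from 120.4 ± 9.86 to 266 ± 24.1 CPM (1.14 ± 0.08).

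The scaffold that holds the sarcomere moved both ways. Of 36 scaffold genes 11 rose and 9 fell. Several genes of the M line and of intermediate filaments rose: Myom1 and Myom2, which encode myomesins, by 0.71 ± 0.06 and 0.91 ± 0.12, Des, desmin, by 0.61 ± 0.07 and Synm, the desmin partner synemin, by 1.099 ± 0.11. Myom1 was at 3919, 4142, 4312 and 4749 CPM in unloaded muscles against 2462 to 2731 (median 2610.4) CPM in controls, with no overlap. Nrap (0.57 ± 0.09) and Cmya5 (0.43 ± 0.07), which encode large scaffold proteins, rose as well, while Myom3, another myomesin gene picked out after its value was seen, fell by 0.43 ± 0.12. Several genes of the Z disc and its signalling fell, among them Actn2, alpha-actinin (-0.73 ± 0.14), Pdlim5 (-0.76 ± 0.11), Ankrd23 (-0.82 ± 0.13) and Nexn, nexilin (-0.48 ± 0.09). Ttn, titin, was 235490.0 ± 6253 CPM in controls and 224210.0 ± 10439 CPM in unloaded muscles and was not called (-0.07 ± 0.07). Its share of reads, taken without TMM scaling, fell from 23.4 ± 0.37% to 22.6 ± 0.22% (p = 0.0028 in an exact permutation test, two-sided, and 0.0056 after Benjamini-Hochberg adjustment over 4 library measures). Outside the list, Sptb, a spectrin of the membrane skeleton, rose by 0.79 ± 0.06.

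Genes that couple excitation to contraction moved both ways, 7 of 28 higher and 8 lower. The voltage sensor genes Cacng1 (1.43 ± 0.17) and Cacna1s (0.65 ± 0.08), the calcium release channel gene Ryr1 (0.45 ± 0.10) and the chloride channel gene Clcn1 (0.74 ± 0.12) rose. Cacng1 was at 89.6, 109, 126 and 106 CPM in unloaded muscles and at 35.3 to 43.8 (median 39.97) CPM in controls, and the groups did not overlap. Asph, a junction protein gene, fell by 0.61 ± 0.09. Of 56 potassium channel genes 10 rose, a share near that over all genes tested (19.1%), and 8 fell. Kcnc4 rose by 1.54 ± 0.29, whereas Kcnf1 (from 0.529 ± 0.177 to 0.0681 ± 0.0619 CPM) and Kcng4 (-1.67 ± 0.38) fell.

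At the surface, genes of the dystrophin complex were called about as often as all genes tested (42.9% against 40.8%). Those of the nerve contact were called less often (21.1%). Of 21 genes of the dystrophin complex 5 rose, with Dmd, dystrophin, at 0.29 ± 0.06, and 4 fell, with Sspn, sarcospan, at -0.64 ± 0.09 and Sgcb, a sarcoglycan, at -0.26 ± 0.05. Of 19 genes of the neuromuscular junction 3 rose and 1 fell (6 and 1 in the fit of young libraries alone): Ache, acetylcholinesterase (0.79 ± 0.12), the receptor subunit gene Chrne (0.63 ± 0.13) and Lrp4 (0.48 ± 0.11) were higher, and Colq, which anchors the enzyme, was lower (-1.22 ± 0.23). Musk, the kinase of the junction, was at 0.04 ± 0.15 and not called. Myogenic genes moved both ways (6 of 24 higher, 5 lower): Eya4 rose by 1.11 ± 0.16 and Cdh15, a satellite cell cadherin gene, by 0.52 ± 0.10, while Sdc4, a syndecan gene of satellite cells, fell by 1.06 ± 0.19.

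Most mitochondrial genes fell. Of 434 nuclear genes in the mitochondrial lists, which include 26 regulators described further on, 333 fell and 19 rose, with a median change of -0.45 beside 0.00 over all genes tested, of which 21.7% fell. The deposited genes include 0 encoded in mitochondrial DNA, so subunits of the complexes encoded there were not measured. All 14 genes of the list of complexes II and III fell, a list that also counts Cycs. Among nuclear genes of the other complexes, all 14 of complex IV, 15 of 17 of the ATP synthase and 33 of 36 of complex I fell. Cycs, cytochrome c, was at 191, 219.9, 187 and 200.3 CPM in unloaded muscles and at 461 to 579 (median 503) CPM in controls. The groups did not overlap, and Cycs fell by 1.37 ± 0.11. Cox7a1, the muscle form of a complex IV subunit (-1.38 ± 0.14), was the deepest fall of its complex, and Cox6a2, another muscle form, was at -0.38 ± 0.07. In complex I Ndufs8 fell from 110.3 ± 7.18 to 53.05 ± 2.72 CPM, and in the ATP synthase Atp5g3 of the membrane ring was at -1.05 ± 0.09 and Atp5b, a catalytic subunit gene, at -0.38 ± 0.07.

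The machinery that builds these complexes fell with them. Of 78 mitochondrial ribosome genes 70 fell and 0 rose, of 44 genes of mitochondrial gene expression 31 fell and 0 rose, and of 35 import genes 27 fell and 2 rose. Tufm, the mitochondrial elongation factor (chromosome 7, 126487355 to 126490731 on mm10), was at 54.1, 54.8, 52.1 and 52.2 CPM in unloaded muscles and at 91.2 to 109 (median 98.8) CPM in controls. The 4 unloaded muscles were all below the controls, the fall was -0.91 ± 0.05, and Tufm had the smallest p of all falls. Mrpl54 (-0.65 ± 0.05) and Mrpl18 (-0.98 ± 0.09) of the large mitochondrial subunit, the processing peptidase gene Pmpcb (-0.70 ± 0.05), the chaperone gene Hspa9 (-0.78 ± 0.07) and the pore genes Tomm5 (-1.104 ± 0.12) and Tomm40l (-1.14 ± 0.10) fell. Exceptions were the import gene Gfer (0.28 ± 0.08) and the assembly gene Cox16 (0.34 ± 0.08), which rose. Of 33 genes for coenzyme Q, heme and iron-sulfur clusters 23 fell, with Alas1, the first enzyme of heme synthesis, at -1.42 ± 0.15 and Coq10a at -1.21 ± 0.12. Of 18 genes of mitochondrial shape 12 fell, among them the fusion gene Opa1 (-0.56 ± 0.06), and 2 rose, Chchd6 (0.46 ± 0.14) and the other fusion gene Mfn2 (0.21 ± 0.08). The call of Chchd6 was lost without unloaded mouse 1 (log2 fold change 0.34, edgeR adjusted p = 0.0895). That of Mfn2 was lost without unloaded mouse 3 or 4 (log2 fold change 0.21, edgeR adjusted p = 0.0589 to 0.0594).

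Carriers of the inner membrane fell in part. Of 41 carrier genes 18 fell and 4 rose, with 19 not called. The ATP carrier gene Slc25a4 fell from 3113 ± 102 to 1929.8 ± 39.1 CPM, and Slc25a11 (-0.79 ± 0.08) and Slc25a34 (-1.66 ± 0.27) fell too. Slc25a28, which carries iron into mitochondria, was at 40.04, 39.8, 43.8 and 41.5 CPM in unloaded muscles and at 17.2 to 21.6 (median 19.4) CPM in controls. All 4 unloaded muscles were above all controls (1.08 ± 0.08), while Tfrc, the receptor that brings iron into the cell, fell by 2.29 ± 0.39. Slc25a27 (0.81 ± 0.10) and Slc25a16 (0.42 ± 0.06) rose as well.

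Genes of enzymes that feed the respiratory chain fell as well. Of 22 genes of fatty acid oxidation 21 fell and of 14 genes of the citric acid cycle 12 fell, with 0 rises in both. Hadhb, of the trifunctional protein, fell from 879 ± 65.5 to 352 ± 19.99 CPM, Acaa2 fell by 1.32 ± 0.14 and Dlst of the cycle fell by 0.90 ± 0.08. Oxct1, which lets muscle burn ketone bodies, was at 260.3, 264, 201 and 212 CPM in unloaded muscles and at 707 to 953 (median 835) CPM in controls, with no overlap (-1.82 ± 0.13). Of 25 genes that handle lipid at the membrane and in droplets 13 fell, with the lipase genes Lpl at -0.77 ± 0.13 and Mgll at -0.95 ± 0.13, and 2 rose, the acyl-CoA synthetase genes Acsl6 (0.72 ± 0.14) and Acsl3 (0.41 ± 0.13), the latter call lost without unloaded mouse 1 (log2 fold change 0.36, edgeR adjusted p = 0.0558). Of 30 peroxisome genes 14 fell and 3 rose, with Phyh at -1.04 ± 0.12. Of 19 genes that break down branched amino acids 10 fell, such as Hibch (-0.66 ± 0.06), and Ppm1k, the phosphatase that activates the branch-point enzyme, rose by 0.56 ± 0.12.

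The regulators of these genes were not uniform. Of 26 regulators 8 rose and 8 fell. Ppara, a fatty acid receptor (-1.496 ± 0.23), Perm1 (-1.33 ± 0.19), Esrrg (-1.02 ± 0.15) and Esrra (-0.72 ± 0.12), which encode estrogen-related receptors, the deacetylase gene Sirt3 (-1.03 ± 0.11) and the mitochondrial DNA factor gene Tfam (-0.50 ± 0.07) were lower in all 4 unloaded muscles than in all controls. Ppargc1a was at 50.2, 43.9, 46.9 and 64.8 CPM in unloaded muscles and at 58.3 to 333 (median 143) CPM in controls. It fell by 1.74 ± 0.44, but unloaded library 4 lay within the range of the controls, where libraries 1 to 4 were at 195 to 333 CPM and libraries 5 to 9 at 58.3 to 143 CPM. Against controls 5 to 9 alone its change was -0.99 ± 0.41 and not called (edgeR adjusted p = 0.0633). Ppara had the same split among controls, with 134 to 199 CPM in libraries 1 to 4 and 75.3 to 112 CPM in libraries 5 to 9. Ppargc1b, the related coactivator, was at -0.18 ± 0.17 and not called, and Prkag3, a subunit of the energy sensor AMPK in fast fibres, rose by 1.56 ± 0.28.

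Promoter windows of genes that fell are shown because they hold the elements of the factors named above, and 2 further windows, of the clock gene Ciart and the chaperone gene Hsph1, because the values of those genes are described further on. The 6 were chosen after their values and matches were seen. Each runs from 250 bases before to 50 bases after the start of the gene in RefSeq (GRCm38.p6) and is printed in the direction of the gene, and capitals mark, on either strand, the matches described for that window, while letters of the other motifs stay in lower case.
Tufm, chr7:126487105-126487404, plus strand: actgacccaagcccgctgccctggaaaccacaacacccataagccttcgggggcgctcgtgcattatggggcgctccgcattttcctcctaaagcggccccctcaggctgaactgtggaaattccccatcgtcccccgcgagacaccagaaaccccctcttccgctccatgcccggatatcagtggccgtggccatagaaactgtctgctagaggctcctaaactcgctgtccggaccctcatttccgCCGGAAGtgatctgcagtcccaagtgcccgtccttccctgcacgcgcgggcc
Sdhd, chr9:50603800-50604099, minus strand: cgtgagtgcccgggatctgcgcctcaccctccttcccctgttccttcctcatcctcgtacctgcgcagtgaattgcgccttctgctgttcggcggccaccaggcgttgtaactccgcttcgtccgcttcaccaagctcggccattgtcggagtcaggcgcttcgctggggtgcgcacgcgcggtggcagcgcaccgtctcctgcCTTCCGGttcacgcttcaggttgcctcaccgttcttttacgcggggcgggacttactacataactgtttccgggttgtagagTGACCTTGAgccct
Mrps18a, chr17:46110754-46111053, plus strand: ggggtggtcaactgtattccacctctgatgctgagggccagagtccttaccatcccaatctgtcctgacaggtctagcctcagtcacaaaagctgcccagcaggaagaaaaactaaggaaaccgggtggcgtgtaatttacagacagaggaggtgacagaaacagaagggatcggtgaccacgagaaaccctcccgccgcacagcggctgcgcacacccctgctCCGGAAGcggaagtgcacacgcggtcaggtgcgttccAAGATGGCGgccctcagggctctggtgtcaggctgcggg
Ndufa11, chr17:56717512-56717811, plus strand: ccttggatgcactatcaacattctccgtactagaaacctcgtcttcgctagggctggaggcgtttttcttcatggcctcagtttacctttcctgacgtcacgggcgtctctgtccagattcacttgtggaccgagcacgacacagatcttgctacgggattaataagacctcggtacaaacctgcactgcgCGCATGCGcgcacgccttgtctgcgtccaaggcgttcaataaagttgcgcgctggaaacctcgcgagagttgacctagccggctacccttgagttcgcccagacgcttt
Ciart, chr3:95882179-95882478, minus strand: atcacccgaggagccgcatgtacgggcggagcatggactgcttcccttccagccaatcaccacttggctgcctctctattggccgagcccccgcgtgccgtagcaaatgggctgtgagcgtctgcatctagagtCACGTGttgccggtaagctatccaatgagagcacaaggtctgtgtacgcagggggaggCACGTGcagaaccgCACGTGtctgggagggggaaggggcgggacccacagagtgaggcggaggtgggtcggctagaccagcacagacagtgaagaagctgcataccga
Hsph1, chr5:149636266-149636565, minus strand: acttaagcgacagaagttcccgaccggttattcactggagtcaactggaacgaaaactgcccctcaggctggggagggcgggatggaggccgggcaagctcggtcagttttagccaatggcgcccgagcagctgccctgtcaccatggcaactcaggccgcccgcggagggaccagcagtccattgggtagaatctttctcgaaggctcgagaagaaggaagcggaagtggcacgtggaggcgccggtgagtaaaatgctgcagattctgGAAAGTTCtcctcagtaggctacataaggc

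The Tufm window holds the ETS letters CCGGAAG across the start itself, from 2 bases before it to base 5. Sdhd, a membrane anchor of complex II (-0.82 ± 0.09), holds CCGGAAG on the other strand from 46 to 40 bases before the start and the estrogen-related receptor letters TCAAGGTCA, also on the other strand, at bases 37 to 45. Mrps18a, a mitochondrial ribosome protein gene (-0.53 ± 0.06), holds CCGGAAG from 26 to 20 bases before the start and the YY1 letters AAGATGGCG at bases 12 to 20. Ndufa11, a complex I subunit gene (-0.80 ± 0.09), holds the NRF1 letters CGCATGCG from 59 to 52 bases before the start. Over the 9865 of 15031 genes tested that had a window at the start the files give, CCGGAAG was in 16.6%, on either strand. It was in 30.8% of the 227 windows of mitochondrial genes that fell and in 18.7% of the windows of other genes that fell. CGCATGCG was in 3.41% of all windows and 8.37% of those of falling mitochondrial genes, and AAGATGGCG in 2.84% and 8.81%. TCAAGGTCA was in 26 of 9865 windows (0.264%) and in 2 of 227 (0.881%), Sdhd among them. Windows of mitochondrial genes that did not fall were not counted apart. These matches describe letters in a window and not binding.

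Genes of glucose use moved both ways. Of 20 glycolysis genes 4 rose, a share near that over all genes tested (19.1%), and 8 fell, where 21.7% of all genes tested fell. Pfkfb3, which makes the activator of phosphofructokinase, was at 72.1, 45.7, 64.1 and 64.8 CPM in unloaded muscles and at 8.98 to 44.4 (median 19.02) CPM in controls, with no overlap (1.63 ± 0.31), and Pfkfb4 (0.63 ± 0.14) and the isomerase gene Gpi1 (0.57 ± 0.07) rose. The entry enzyme hexokinase 2, Hk2, fell by 0.89 ± 0.13, and Pgk1 (-0.49 ± 0.06) and Pgam2 (-0.64 ± 0.09) of the lower pathway fell. Aldoa, the muscle aldolase, was at 0.20 ± 0.10 and not called. At the gate to the cycle, 11 of 17 genes fell, with subunits of the pyruvate dehydrogenase complex among them: Pdha1 -0.98 ± 0.09, Dlat -0.90 ± 0.09, Pdhb -0.85 ± 0.06 and Pdhx -0.85 ± 0.07. Its phosphatase gene Pdp1 (0.67 ± 0.14), which switches the complex on, and its kinase gene Pdk2 (0.41 ± 0.13), which switches it off, both rose. Pdk4, the kinase of fasting, was at -0.40 ± 0.27 and not called. In glycogen metabolism 5 of 17 genes rose, among them the targeting subunit gene Ppp1r3a (0.51 ± 0.08), and 4 fell, among them its relative Ppp1r3c (-1.84 ± 0.27) and Ugp2 (-1.100 ± 0.12). The share of glycogen genes that fell was near that over all genes tested (21.7%). Slc2a4, the insulin-responsive glucose transporter, fell by 0.58 ± 0.10.

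Part of the genes of fatty acid synthesis rose. Of 16 lipogenesis genes 6 rose, 1 fell and 9 were not called, with a median change over the list of 0.31 (0.19 without unloaded mouse 2). Acly, which makes cytosolic acetyl-CoA, was at 58.8, 73.7, 46.0 and 49.1 CPM in unloaded muscles and at 27.6 to 36.9 (median 30.9) CPM in controls, with no overlap (0.85 ± 0.13). Fasn rose from 56.2 ± 17.8 to 202 ± 75.6 CPM and the desaturase gene Scd1 from 162 ± 44.2 to 545 ± 133 CPM. Mlxipl, which encodes a glucose-sensing factor, fell by 0.70 ± 0.14, and Acacb was at -0.03 ± 0.13 and not called. Of 10 adipocyte markers 1 rose and 2 fell (3 and 2 in the fit of young libraries alone), with Aqp7 at -0.87 ± 0.20, and the summed level was 242 to 355 CPM in controls and 214 to 319 CPM in unloaded muscles. Of 25 energy buffer genes 16 fell, with the creatine transporter gene Slc6a8 at -0.90 ± 0.10 and the mitochondrial creatine kinase gene Ckmt2 at -2.21 ± 0.16, and 2 rose, Ckm (0.59 ± 0.10) and Ampd1, the AMP deaminase of muscle (0.84 ± 0.11). Of 34 antioxidant genes 13 fell and 8 rose. The mitochondrial members Prdx3 (-0.53 ± 0.06), Prdx5 (-0.68 ± 0.08), Sod2 (-0.65 ± 0.10) and Txn2 (-0.52 ± 0.07) fell, and the glutathione genes Gclm (0.91 ± 0.14), Gstm1 (0.91 ± 0.14) and Gstm2 (0.78 ± 0.13) rose.

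**Figure D2:**
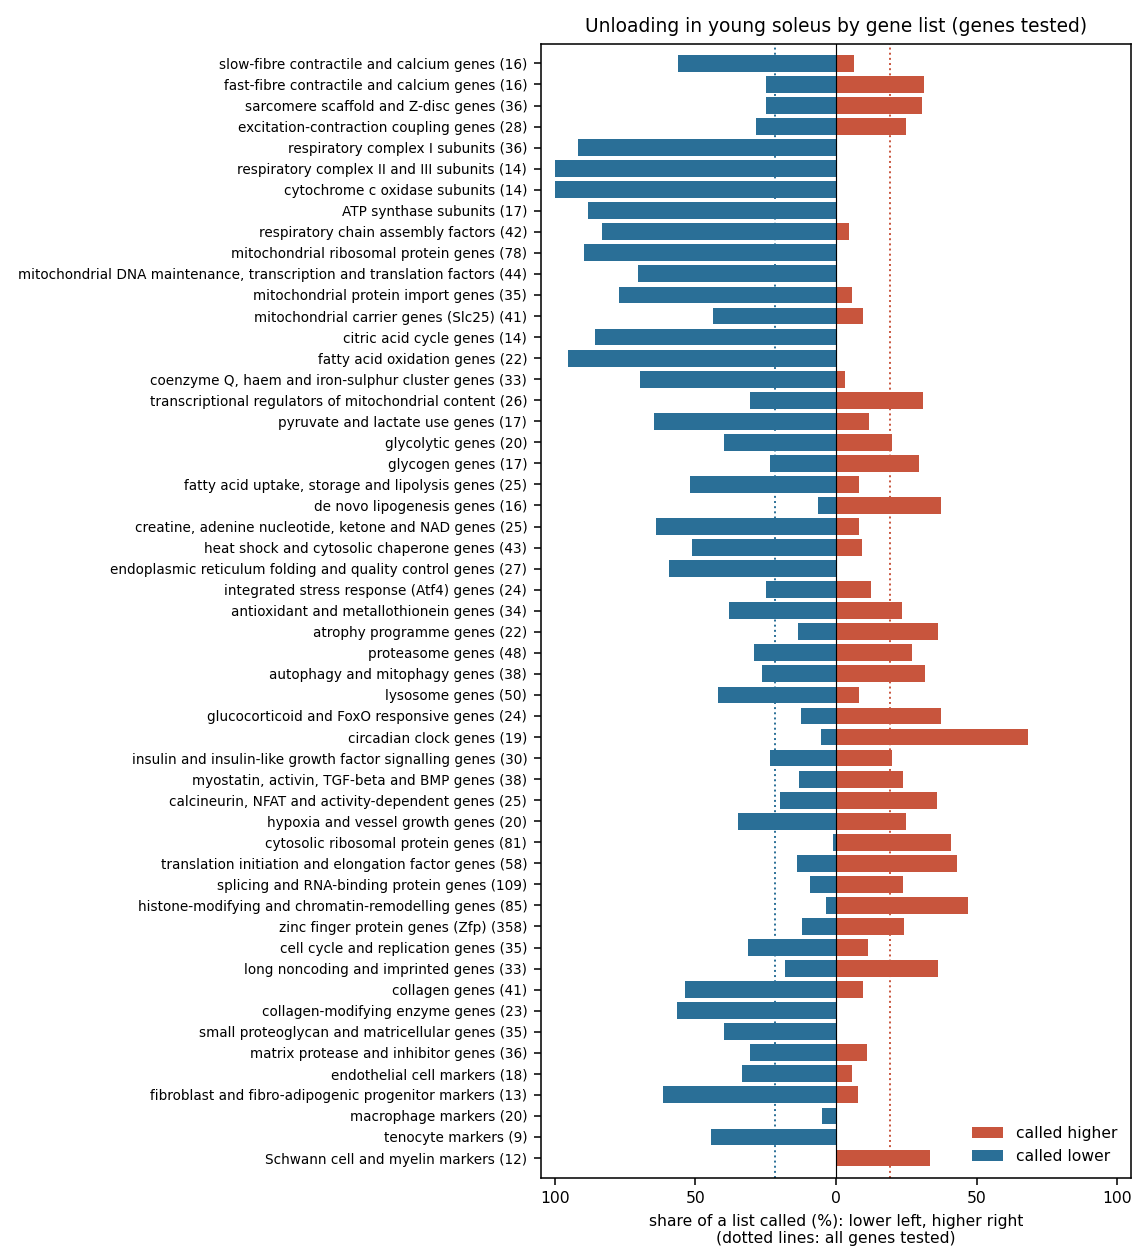
Share of the tested members of each list (number in brackets) that were called higher, in red to the right, or lower, in blue to the left (x axis, percent), with dotted lines at 19.1% and 21.7% for all genes tested. Lists of the respiratory complexes have falls and no rises, while the cytosolic ribosome, chromatin and clock lists have mostly rises.

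Genes of protein folding in the cytosol and in the endoplasmic reticulum fell more often than they rose. Of 43 heat shock genes 22 fell and 4 rose, and of 27 folding genes of the reticulum 16 fell and 0 rose (10 and 0 against controls 5 to 9 alone). Hsph1, a large chaperone gene of the HSP110 family, was at 24.2, 21.6, 22.6 and 22.6 CPM in unloaded muscles and at 43.3 to 97.4 (median 50.1) CPM in controls. The groups did not overlap (-1.47 ± 0.21), and controls 1 to 3 were the highest. Its promoter, printed above, holds the heat shock letters GAANNTTC (N is any base) at bases 21 to 28, letters found in 5.96% of all windows, on either strand as for the other motifs. Hspa8, the constant cytosolic chaperone (-1.03 ± 0.12), and Hspa5, the main chaperone of the reticulum (-1.04 ± 0.20), fell, as did Hyou1 (-0.54 ± 0.09), Pdia6 (-0.64 ± 0.12) and the sensor gene Atf6 (-0.52 ± 0.07). Of 43 secretory pathway genes 16 fell and 6 rose. In the integrated stress response, 6 of 24 genes fell, with Mthfd2 (-1.76 ± 0.21), Atf5 (-0.91 ± 0.10) and Ddit3 (-0.72 ± 0.16), and 3 rose, Eif4ebp1 (0.81 ± 0.19), Chac1 (1.47 ± 0.44) and Slc3a2 (0.32 ± 0.10). Genes of that response were called about as often as all genes tested (37.5% against 40.8%). Atf4, whose protein drives that response, was at -0.16 ± 0.11 and not called.

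Genes of protein breakdown did not rise as a block. Of 22 ubiquitin ligase genes known from atrophy 8 rose and 3 fell, of 48 proteasome genes 13 rose and 14 fell, of 38 autophagy genes 12 rose and 10 fell, and of 50 lysosome genes 4 rose and 21 fell. Klhl33 (0.93 ± 0.21), Fbxo31 (0.75 ± 0.14), Nedd4 (0.29 ± 0.05) and the atrogin gene Fbxo32 (0.54 ± 0.15) rose, and Asb2 (-0.51 ± 0.13) and Stub1 (-0.28 ± 0.05) fell. Within the proteasome the lid and base genes Psmd4 (0.87 ± 0.07), Psmd2 (0.39 ± 0.06) and Psmc3 (0.43 ± 0.06) rose, while the core gene Psma1 (-0.47 ± 0.06) and the activator gene Psme1 (-0.62 ± 0.07) fell. Psmd4 was at 169, 189, 213 and 205 CPM in unloaded muscles and at 95.2 to 118 (median 106) CPM in controls, with no overlap. The mitophagy genes Pink1 (0.66 ± 0.07) and Bnip3l (0.47 ± 0.06) and the receptor gene Sqstm1 (0.54 ± 0.09) rose, whereas Gabarapl1 (-0.79 ± 0.14) and Optn (-0.47 ± 0.09) fell. Of other ligase families, 11 of 60 F-box genes rose and 6 fell, 8 of 33 Kelch-like genes rose and 9 fell, and 10 of 40 tripartite motif genes rose and 6 fell (7 and 2 without unloaded mouse 3, 7 and 3 without unloaded mouse 4, 6 and 4 against controls 5 to 9 alone), with Klhl34 at -1.19 ± 0.13 and Trim72, of membrane repair, at -0.81 ± 0.10. The share of F-box genes that rose was near that over all genes tested (19.1%).

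Most clock genes rose. Of 19 clock genes 13 rose and 1 fell, with a median of 0.53 (9 and 0 against controls 5 to 9 alone). Per1, a repressor of the clock, was at 32.7, 38.0, 45.4 and 55.9 CPM in unloaded muscles and at 9.92 to 27.9 (median 14.3) CPM in controls. The groups did not overlap, and Per1 rose by 1.47 ± 0.24. Cry2, another repressor, rose by 1.11 ± 0.11, Ciart by 1.604 ± 0.31 and the nuclear receptor gene Rora by 0.50 ± 0.08, while Npas2 fell by 0.79 ± 0.31, a call lost without unloaded mouse 1, 2 or 4, or control mouse 1, 2 or 8 (log2 fold change -0.83 to -0.64, edgeR adjusted p = 0.0596 to 0.142). The Ciart window printed above holds the E-box CACGTG at 3 places, from 116 to 111, 58 to 53 and 44 to 39 bases before the start. That hexamer was in 9.64% of all windows and in 4 of 14 windows of clock genes. All muscles were taken at 1 time of day, so a higher level and a shifted phase cannot be told apart. Of 24 genes that glucocorticoids or FoxO factors are known to drive 9 rose (6 rose and 1 fell against controls 5 to 9 alone), with Arrdc2 (1.95 ± 0.39), Fkbp5 (1.28 ± 0.21) and Pik3r1 (0.49 ± 0.09), and 3 fell, Angptl4 (-1.61 ± 0.48), Sesn3 (-0.56 ± 0.11) and Nr3c1, the receptor (-0.25 ± 0.07). Fkbp5 was at 57.7, 46.0, 85.1 and 98.3 CPM in unloaded muscles and 18.8 to 43.3 (median 28.5) CPM in controls, with no overlap. Angptl4 overlapped between groups, with controls at 2.97 to 72.8 CPM. Against controls 5 to 9 alone Angptl4 was at -0.32 ± 0.34 and Nr3c1 at -0.17 ± 0.07, and neither was called (edgeR adjusted p = 0.514 and 0.0689). The call of Angptl4 was also lost in the fit of young libraries alone (-1.60 ± 0.65, edgeR adjusted p = 0.052).

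**Figure D3:**
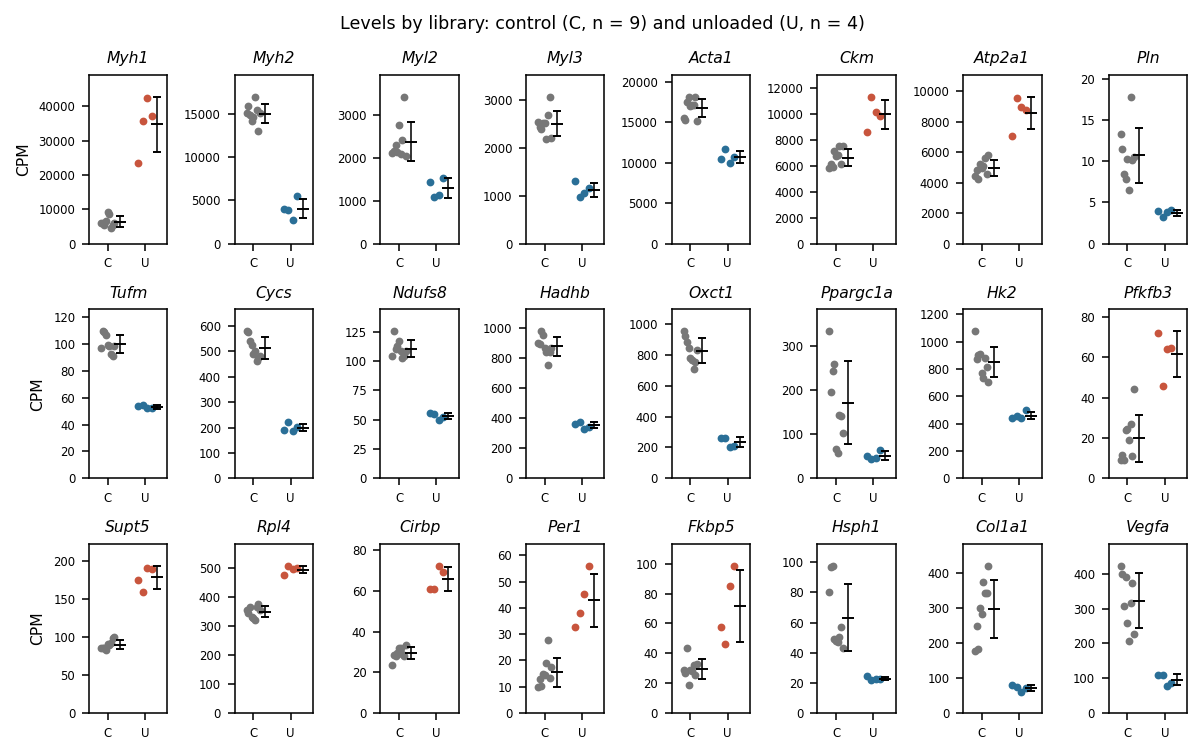
Level of 24 genes (y axis, CPM, from 0) in the 9 control (C) and 4 unloaded (U) young muscles, 1 point per mouse, with bars for the mean and SD. Myh1, Supt5 and Cirbp are higher in all 4 unloaded muscles than in the 9 controls, Tufm, Cycs and Vegfa are lower in all 4, and Ppargc1a overlaps.

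Signals of vessel growth moved in opposite directions. Of 20 genes of hypoxia and angiogenesis 7 fell and 5 rose. Vegfa, the main vessel growth factor made by muscle, was at 109, 109.9, 76.9 and 86.7 CPM in unloaded muscles and at 207 to 422 (median 318) CPM in controls. The groups did not overlap, and Vegfa (-1.75 ± 0.21) and its receptor gene Kdr (-1.06 ± 0.16) fell, whereas the ligand genes Apln (1.89 ± 0.25), Pgf (1.64 ± 0.26) and Adm (0.99 ± 0.15) rose. Bnip3, a hypoxia target, was at -0.03 ± 0.11 and not called. Of 18 endothelial markers 6 fell and 1 rose, with Emcn (-0.66 ± 0.13), Plvap (-0.66 ± 0.14) and Eng (-0.62 ± 0.14) lower, Cldn5 (0.76 ± 0.18) higher and Pecam1 (0.07 ± 0.09) not called. The summed level of these markers was 753 to 824 CPM in controls and 630.0 to 699 CPM in unloaded muscles, and its part in the fall of Kdr was not tested. Of 12 markers of mural cells 5 rose and 1 fell (3 and 0 without unloaded mouse 3, and with 1 transcript per gene in place of the sum), but Des, which muscle fibres make as well, is 1 of them, and the summed level was 3890 to 4362 CPM in controls and 4936 to 6280 CPM in unloaded muscles.

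In calcium and activity signalling 9 of 25 genes rose and 5 fell. Rcan1 (-1.44 ± 0.29) and Rcan2 (-0.82 ± 0.10), which encode regulators of calcineurin, fell. Ppp3ca, the catalytic subunit of calcineurin (0.48 ± 0.06), Hdac4 (0.70 ± 0.24) and Tbx15, a factor of glycolytic fibres (0.65 ± 0.08), rose. Of 28 genes linked to stretch or to the factors Yap or Srf 7 fell and 2 rose (12 and 2 in the fit of young libraries alone). The share that fell was near that over all genes tested (21.7%). Fhl2 (-1.08 ± 0.16), Amotl1 (-0.81 ± 0.08) and the serum response factor gene Srf (-0.37 ± 0.08) fell, while Mkl2, a coactivator of that factor, rose by 0.34 ± 0.08. Ctgf was at -0.22 ± 0.27 and not called. Immediate early genes were mostly uncalled (3 of 24 higher, 1 lower), with Nr4a3, an exercise-induced receptor gene, at -2.55 ± 0.61. In insulin and IGF signalling 6 of 30 genes rose and 7 fell (10 and 10 in the fit of young libraries alone): Irs1 (-0.77 ± 0.17) and Pik3ca (-0.58 ± 0.09) fell, and Igf1r (0.45 ± 0.08), Rictor (0.29 ± 0.05) and the ribosomal kinase gene Rps6kb1 (0.32 ± 0.05) rose. In TGF-beta and BMP signalling 9 of 38 rose and 5 fell, with the receptor genes Acvr1b (1.03 ± 0.13) and Tgfbr3 (0.82 ± 0.07) higher and the ligand gene Tgfb3 (-0.66 ± 0.08) lower. In Wnt signalling 7 of 37 rose and 8 fell, with the ligand gene Wnt4 at 1.80 ± 0.30 and the inhibitor gene Dkk2 at 1.35 ± 0.22. The shares in the Wnt list and in the insulin and IGF list were near those over all genes tested (19.1% rose and 21.7% fell).

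Ribosomal protein and translation factor genes rose more often than they fell. Of 81 cytosolic ribosomal protein genes 33 rose and 1 fell, with a median of 0.14 beside 0.00 over all genes tested (14 and 1 against controls 1 to 4 alone). Of 48 ribosome biogenesis genes 6 rose and 4 fell, and 10 and 7 in the fit of young libraries alone. Rpl4 was at 477, 506, 494 and 498 CPM in unloaded muscles and at 319 to 375 (median 353) CPM in controls, with no overlap (0.50 ± 0.07), Rps27 rose by 0.50 ± 0.07, and Rplp0 was at -0.11 ± 0.05 and not called. The fall was that of Rps2 (-0.18 ± 0.06), a call lost without unloaded mouse 1 (log2 fold change -0.15, edgeR adjusted p = 0.0647). Ribosomal protein genes have many near-identical copies, which may divide their reads. Of 58 translation factor genes 25 rose and 8 fell: Eif3b (0.59 ± 0.08), Eif3e (0.55 ± 0.06) and Eef2 (0.31 ± 0.07) rose, but so did the inhibitory kinase genes Eef2k (0.74 ± 0.11) and Eif2ak4 (0.44 ± 0.06), and the cap-binding gene Eif4e fell (-0.36 ± 0.07). Of 20 cytosolic tRNA synthetase genes 3 rose, with Vars at 0.96 ± 0.12, and 6 fell, with Yars at -0.65 ± 0.07. Slc43a1, a transporter of branched amino acids, rose by 1.66 ± 0.23, and its relative Slc43a2 fell by 0.75 ± 0.12.

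In the nucleus 40 of 85 chromatin genes rose and 3 fell, and 26 of 109 splicing genes rose and 10 fell. Of 79 genes of RNA polymerase II and mediator 14 rose and 17 fell, shares near those over all genes tested (19.1% and 21.7%). Supt5, a transcription elongation factor, was at 175, 159, 191 and 189 CPM in unloaded muscles and at 82.6 to 99.9 (median 89.6) CPM in controls. The groups did not overlap (0.99 ± 0.06), and Supt5 had the smallest p of all rises. Cirbp, a cold-inducible RNA-binding protein gene (1.17 ± 0.08), and its relative Rbm3 (0.84 ± 0.11) rose, as did Rpa1, of single-stranded DNA binding (0.77 ± 0.06), Sart1, of the spliceosome (0.61 ± 0.05), and the large ligase gene Herc2 (0.54 ± 0.05). Of the chromatin genes Ezh1, a histone methyltransferase (0.69 ± 0.07), and Chd4, a remodeller (0.53 ± 0.06), rose, and Kmt5a (-0.69 ± 0.07) fell. Of 358 zinc finger protein genes 87 rose and 43 fell, and in this list as in the splicing list the share that rose was near that over all genes tested (19.1%). Of 33 long noncoding and imprinted transcripts 12 rose, among them the snoRNA hosts Snhg3 (0.83 ± 0.10) and Snhg8 (0.77 ± 0.11), and 6 fell, with H19 at -1.41 ± 0.21. Malat1, an abundant nuclear RNA, was at 0.06 ± 0.10 and not called. No source used here says if reads were counted by strand, so reads of Airn (0.54 ± 0.08) and of the gene it overlaps cannot be told apart.

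Genes of dividing cells were called about as often as all genes tested (42.9% against 40.8%). Of 35 cell cycle genes 11 fell, 4 rose and 20 were not called, and over all genes tested 21.7% fell and 19.1% rose. In the fit of young libraries alone 6 fell and 4 rose, and the median of the list was -0.15 in place of -0.27. Top2a was at 0.587, 0.448, 0.143 and 0.254 CPM in unloaded muscles and at 0.735 to 5.86 (median 1.18) CPM in controls, and Ccnd1, cyclin D1, fell by 1.31 ± 0.17 from 17.1 ± 3.22 CPM. Both genes were below all controls in all 4 unloaded muscles. The inhibitor gene Cdkn2c (0.40 ± 0.11) and the genes Mcm4 (0.35 ± 0.11) and Mcm7 (0.42 ± 0.11) of the replication helicase rose. The remaining rise was that of Cdkn1b (0.18 ± 0.07), a call lost without unloaded mouse 3 or 4, or control mouse 1, 2, 3, 7 or 8 (log2 fold change 0.12 to 0.18, edgeR adjusted p = 0.0570 to 0.245).

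Matrix genes fell widely. Of 41 collagen genes 22 fell and 4 rose, of 23 genes that process collagen 13 fell and 0 rose, and of 35 genes of proteoglycans and matricellular proteins 14 fell and 0 rose (9 fell without unloaded mouse 3). Col1a1, of type I collagen, was at 79.6, 73.4, 59.1 and 71.8 CPM in unloaded muscles and at 176 to 419.7 (median 301) CPM in controls. The groups did not overlap (-2.06 ± 0.32), nor did they for Col3a1 (-1.36 ± 0.31), Col4a1 of the basement membrane (-0.77 ± 0.11), the collagen chaperone gene Serpinh1 (-1.08 ± 0.17), the hydroxylase gene P4ha1 (-0.92 ± 0.12) or Sparc (-1.01 ± 0.16). The collagen genes that rose were Col28a1 (1.31 ± 0.21), Col7a1 (1.148 ± 0.23), Col23a1 (0.52 ± 0.15) and Col4a3 (0.41 ± 0.17), the last named after its value was seen. The call of Col4a3 was lost without unloaded mouse 1, 2, 3 or 4, or control mouse 1, 2, 3 or 4 (log2 fold change 0.35 to 0.43, edgeR adjusted p = 0.0604 to 0.0909). Dcn, decorin, was at 0.25 ± 0.13 and not called. Of 36 genes of matrix proteases and their inhibitors 11 fell, with Adamts8 at -2.21 ± 0.39, and 4 rose, with Mmp13, a collagenase gene, at 1.201, 7.37, 0.315 and 1.02 CPM in unloaded muscles and at most 0.299 CPM in controls. Mmp13 was highest in unloaded library 2, the library with most Alb: its change was 4.50 ± 0.64 with that library and 2.96 ± 0.62 without it.

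Marker lists of other cells moved beside the matrix. Of 13 fibroblast markers 8 fell (5 against controls 5 to 9 alone), with Pi16 (-0.77 ± 0.18) and Thy1 (-0.85 ± 0.20), and 1 rose, Gsn, gelsolin (0.29 ± 0.10), a call lost without unloaded mouse 1 or 3 (log2 fold change 0.27 to 0.29, edgeR adjusted p = 0.0534 to 0.0625). The summed level was 1327 to 1843 CPM in controls and 1649 to 1841 CPM in unloaded muscles. Of 9 tendon cell markers 4 fell and 0 rose (9 and 0 in the fit of young libraries alone), with Scx, the tendon factor, at -1.59 ± 0.32 and Kera at -2.04 ± 0.48, and the summed level was 431 to 592 CPM in controls and 280.1 to 419 CPM in unloaded muscles. The part of tendon left on the muscle in the fall of collagen genes was not tested. Of 12 Schwann cell markers 4 rose and 0 fell (2 rose without control mouse 1, 2 or 3, and 1 without unloaded mouse 3 or 4, or against controls 5 to 9 alone).

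Immune genes were mostly uncalled. Of 20 macrophage markers 1 fell, Adgre1 (-0.57 ± 0.22), a call lost without unloaded mouse 1, 2, 3 or 4, or control mouse 3, 5 or 6 (log2 fold change -0.61 to -0.49, edgeR adjusted p = 0.0511 to 0.122). There were 0 rises, with a summed level of 186 to 389 CPM in controls and 234 to 311 CPM in unloaded muscles. Of 25 interferon-responsive genes 2 fell, Ifi27 (-0.71 ± 0.09) and Ifi35 (-0.40 ± 0.08), and of 16 antigen presentation genes and 12 red cell genes 0 were called. In the fit of young libraries alone 3 interferon-responsive genes rose and 3 fell, and 2 antigen presentation genes and 3 red cell genes rose. Of 17 complement genes 2 fell, C1s1 (-0.41 ± 0.10) and C4b (-0.57 ± 0.20), the latter call lost without unloaded mouse 3 or 4, or control mouse 3 (log2 fold change -0.56 to -0.45, edgeR adjusted p = 0.0574 to 0.0777). Among 30 chemokine genes and receptors 5 rose and 2 fell: Cxcl12 fell from 156 ± 15.5 to 88.1 ± 5.86 CPM (-0.82 ± 0.11) and Cxcr4, its receptor, rose from 2.42 ± 0.379 to 5.80 ± 1.06 CPM (1.26 ± 0.18). Of 15 liver genes 0 were called, whereas 8 were called higher in the fit of young libraries alone. They had a summed level of 21.8 to 62.9 CPM in controls and 42.3 to 135 CPM in unloaded muscles, where library 2 was highest. The median change of these genes was 2.11, and 0.97 without that library.

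Falls were more common among genes of short transcripts and rises among genes of long ones. Length here is that of the deposited transcript with most reads, and only genes averaging 5 CPM or more were used. Among 631 genes of up to 1 kb 46.3% fell and 11.1% rose, and among 1298 genes over 6 kb 17.0% fell and 32.5% rose. The median log2 deviation from the controls' mean of genes up to 1.5 kb, minus that of genes over 4 kb, was -0.208 to -0.144 in the 4 unloaded libraries and -0.047 to 0.072 in the 9 controls, with no overlap. Mitochondrial genes are short and made part of this: of 192 short mitochondrial genes 170 fell. Without them and without the 69 short ribosomal protein genes, of which 28 rose and 1 fell, the difference was still -0.181 to -0.125 against -0.043 to 0.065, and 37.1% of the remaining 1174 short genes fell while 13.5% rose. RNA quality was not measured in the files, and the part of RNA integrity or of library preparation in the relation to length was not tested. Long noncoding RNAs went the other way from coding genes: of 660 in RefSeq 30.2% rose and 8.64% fell (median 0.24), against 18.5% and 22.6% of 14073 coding genes (median -0.01).

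**Figure D4:**
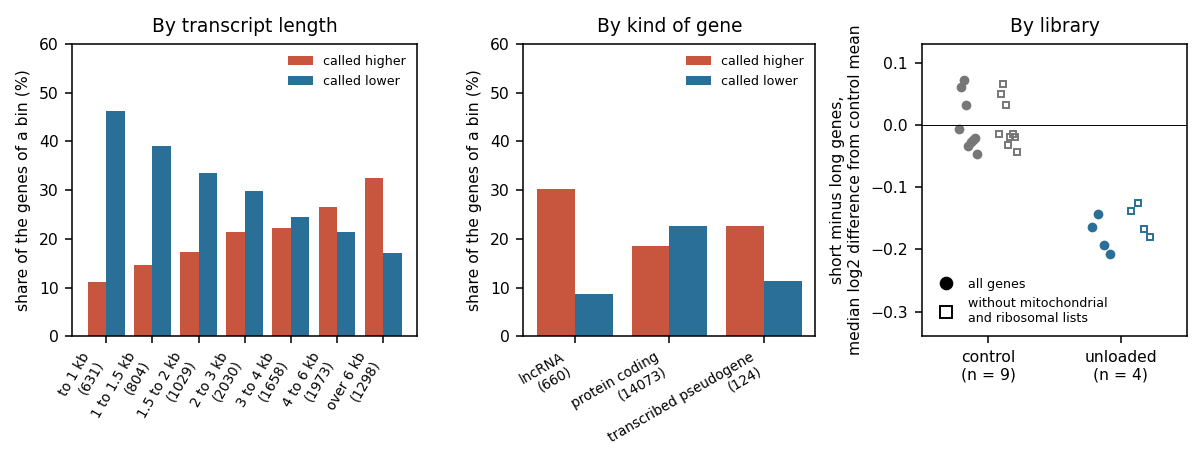
Left and centre, percent of genes called higher (red) and lower (blue) by transcript length (genes averaging 5 CPM or more, number in brackets) and by kind of gene in RefSeq. Right, the median log2 deviation from the control mean of genes up to 1.5 kb minus that of genes over 4 kb, 1 point per mouse, with open squares for the same without mitochondrial and ribosomal genes; the 4 unloaded mice lie at -0.208 to -0.144, below the 9 controls at -0.047 to 0.072.

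Many genes held their level closely. For 1333 genes the 95% interval of the change lay within 0.2 of 0 in both directions, so a larger change is outside the interval. Those with the highest levels were the myocyte enhancer factor gene Mef2c (1088 ± 83.2 CPM in controls and 1108 ± 48.2 CPM in unloaded muscles), the linker gene Dst (0.06 ± 0.06), the Golgi gene Golga4 (0.00 ± 0.06), the motor genes Kif1c (0.05 ± 0.06) and Dync1h1 (0.00 ± 0.05), the deubiquitinase gene Usp9x (-0.08 ± 0.05) and Gnas (-0.01 ± 0.07), a G protein gene. Among tracked muscle genes, Mb, myoglobin, was at 4337, 5426, 4981 and 5011 CPM in unloaded muscles and at 5516 to 6219 (median 5774) CPM in controls; it did not overlap between groups but was not called (-0.25 ± 0.11). Of the 6130 called genes 1454 were among the 3030 listed genes, and the others belong to no list used here. Among such genes Inmt (1.99 ± 0.30), a methyltransferase gene, Tnfrsf19 (1.49 ± 0.16), a receptor gene, and Car3, the carbonic anhydrase of slow muscle (1461 ± 299 to 2546 ± 448 CPM), rose, and Pla2g16, a phospholipase gene (-1.14 ± 0.09), Rtn4ip1 (-1.199 ± 0.10), Dapp1 (-2.10 ± 0.17) and Lrrc52 (-2.18 ± 0.38) fell.

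The response of old soleus was set beside the young one, in 6 old unloaded against 9 old control muscles. In old mice 6425 genes were called (42.7%). Of the genes called in young mice 2028 were higher in both ages, 2539 lower in both and 1 opposite, and 841 rises and 721 falls were called in young mice alone. The opposite pair was Catsper2 (-0.24 ± 0.09 in young and 0.20 ± 0.08 in old mice), and its call in young mice was lost without unloaded mouse 1, 2 or 3, or control mouse 1, 4 or 8 (log2 fold change -0.25 to -0.16, edgeR adjusted p = 0.0586 to 0.202). The difference in response between the ages was called for 0 genes by edgeR, with 1487 genes at an unadjusted p under 0.05 and 8 genes called by DESeq2, so no gene can be said here to respond at 1 age only. The count moved with the controls: it was 126 with young controls 1 to 4 alone, 59 with controls 1 to 6 of both ages and 0 with young controls 5 to 9 alone, and 2 without young control mouse 7. With the same test, the smallest adjusted p among the genes named above was that of Tufm (-0.91 ± 0.05 in young and -0.58 ± 0.05 in old mice, edgeR adjusted p of the difference 0.119). Acly was at 0.85 ± 0.13 in young and 0.03 ± 0.12 in old mice (edgeR adjusted p of the difference 0.188), Fasn at 1.85 ± 0.40 and 0.26 ± 0.37 and Scd1 at 1.75 ± 0.38 and 0.05 ± 0.35 (edgeR adjusted p of the difference 0.357 and 0.281). Adamts8 was at -2.21 ± 0.39 and -0.12 ± 0.31. Medians over lists, given side by side and with no test, were -0.10 in young (0.07 without control mouse 3) and 0.54 in old mice for macrophage markers, 0.53 and 0.23 for clock genes, 0.27 and 0.55 for glucocorticoid and FoxO targets, -0.27 and 0.09 for cell cycle genes and 0.31 and 0.04 for lipogenesis.

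**Figure D5:**
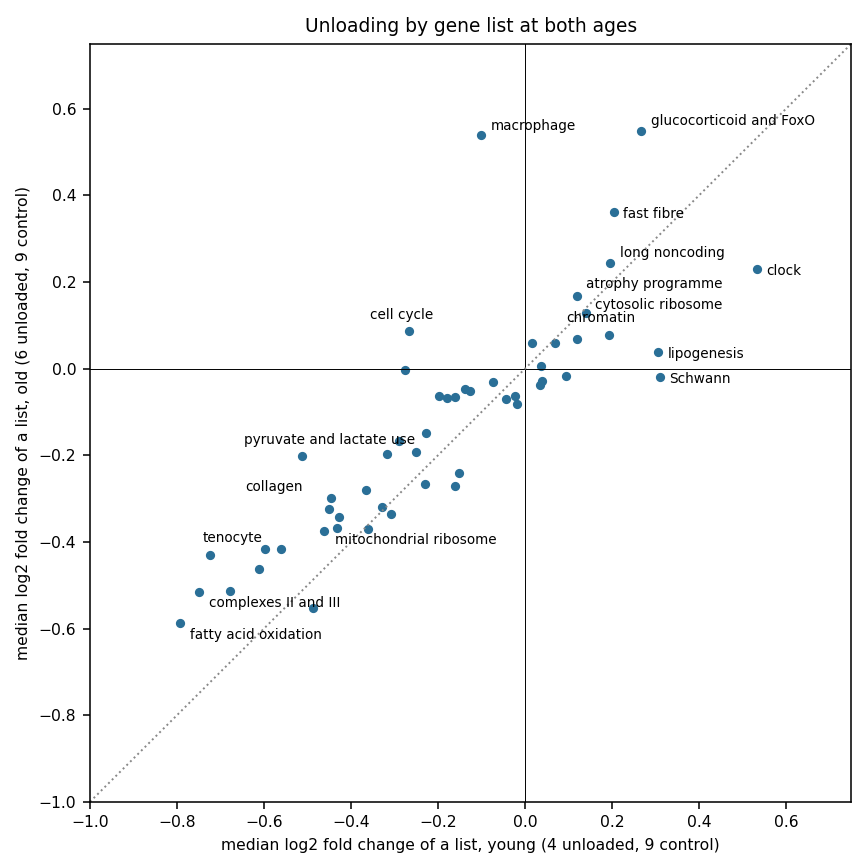
Median log2 fold change of the lists charted above in old soleus (y axis) against young soleus (x axis), 1 point per list, some of them labelled, with a dotted line of equal change. Lists of the respiratory complexes lie below 0 at both ages, and the macrophage list lies at -0.10 in young and 0.54 in old mice.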

How the data were processed

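The authors deposited 31668 transcripts with, per the file headers, reads and RPKM for every library. The read values are estimated counts that the authors split between transcripts, and 94.9% of the sums per gene were whole to within 0.01 reads. The deposited RPKM values (scaled by transcript length and library size) were not tested. Tools in the submitters' processing notes were Partek 6.6, TopHat2 2.0.1, TopHat and DESeq, with mm10, in no stated role or order, and the labels name 2 RNA kits, 1 of them stranded.

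Reads were summed per gene and rounded, filtered with filterByExpr, scaled with TMM and fitted in 1 model of 6 groups and 36 libraries with edgeR 4.0.16 (quasi-likelihood F test, R 4.3.3, Benjamini-Hochberg over 15031 genes). The SE was taken as the change divided by the square root of F. The spread between mice (biological coefficient of variation) was 0.149. On simulated counts for the young comparison the fit recovered 77 of 100 genes changed 1.5-fold and 96 of 100 changed 2-fold, with 11 false calls among 14603 genes run. The changed genes had a young control mean of at least 1 CPM, so recovery under 1 CPM was not measured. Only these genes were changed, a far smaller share than the 40.8% called in the data, and all groups were given the young control mean. Within the young controls and within the young unloaded muscles no 2 libraries were duplicates, since the lowest chi-square per degree of freedom was 8.46. Pairs between groups and the other libraries were not compared. Library measures, taken without TMM scaling, were compared with exact permutation tests over 715 assignments (smallest p 0.0014). Alternatives used DESeq2 1.42.0, other scalings and filters, a block for the mouse number and each library left out.

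Members and gene lists were chosen with earlier results of these data known. Named genes are the 10 largest changes and 10 smallest p-values in each direction, the 10 largest gains and losses in reads, for each of 92 lists its 4 called members with the smallest p, its largest change, its highest level and up to 3 that moved against the rest, the 8 most abundant stable genes, and tracked genes. Fewer were printed, and some genes are not reported here. Pairing by mouse number was checked and not found.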

Additional observations from a re-analysis of the deposited data

Results flagged for a closer look

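The values of the genes named above and of the 4 library measures were checked for single libraries that stand apart. In 37 of 612 groups of values the highest or lowest library lay farther from the others than Dixon's 95% critical value allows, 26 times among the 9 controls and 11 times among the 4 unloaded muscles. Chance alone marks about 1 group in 20.

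Control mouse 8 stood apart most often among the controls, with slow-fibre genes at the high end. In control mouse 8 these were Amotl1 at 1562 CPM (above 1115 to 1306), Klhl34 at 139 CPM (above 94.3 to 106) and Mlxipl at 77.7 CPM (above 53.2 to 61.4). The same mouse also had Myh7 at 16630.3 CPM (above 9223 to 12650.1), Rcan1 at 418 CPM (above 209.8 to 314) and Tnnc1 at 1589 CPM (above 899.6 to 1172). The same mouse also had Tnni1 at 1390.4 CPM (above 754 to 1025), Tnnt1 at 2774 CPM (above 1671 to 2179) and Ttn at 250594 CPM (above 227654 to 237402). Of these genes Tnnc1 is the one whose call in the comparison was lost without this mouse.

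Unloaded mouse 2, the one with most Alb, stood apart most often among the unloaded muscles. In unloaded mouse 2 these were Airn at 13.4 CPM (above 12.2 to 12.4), Eif2ak4 at 11.3 CPM (below 12.3 to 12.4) and Emcn at 12.1 CPM (above 9.00 to 9.29). The same mouse also had Gfer at 15.4 CPM (above 13.1 to 13.4), Hdac4 at 102 CPM (below 112 to 113) and Mmp13 at 7.37 CPM (above 0.315 to 1.201). The same mouse also had Phyh at 134 CPM (above 115 to 118), Prdx5 at 44.9 CPM (above 41.1 to 41.6) and Rtn4ip1 at 17.3 CPM (above 15.1 to 15.3).

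Control mouse 1 had Dapp1 at 16.9 CPM (above 11.1 to 13.6). Control mouse 2 had Eif2ak4 at 7.71 CPM (below 8.69 to 9.68) and Esrra at 109 CPM (above 94.3 to 99.5). Control mouse 3 had Angptl4 at 72.8 CPM (above 2.97 to 33.2), Esrrg at 196 CPM (above 129.7 to 158) and Top2a at 5.86 CPM (above 0.735 to 2.30). Control mouse 4 had Ifi27 at 24.97 CPM (above 18.97 to 22.00) and Psme1 at 32.6 CPM (above 25.8 to 29.0). Control mouse 6 had Col3a1 at 909 CPM (above 354 to 545), Gabarapl1 at 106 CPM (below 132 to 159.9) and Mmp13 at 0.299 CPM (above 0.0314 to 0.121). It also had Sparc at 315 CPM (above 211 to 256). Control mouse 7 had Ctgf at 152 CPM (above 43.9 to 82.4), Itgav at 106 CPM (below 116 to 121) and Per1 at 27.9 CPM (above 9.92 to 18.9). Control mouse 9 had Cmya5 at 6351 CPM (above 5541 to 5927) and Pfkfb3 at 44.4 CPM (above 8.98 to 26.7). Unloaded mouse 1 had Txn2 at 70.9 CPM (below 76.3 to 76.8). Unloaded mouse 3 had Irs1 at 83.0 CPM (below 98.8 to 102). No cause was tested for any of these values.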

How the results depend on the processing

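The count of 6130 called genes ranged from 4808 to 6855 over the other settings and from 5069 to 6095 when 1 library was left out, and 0 genes were called in opposite directions in any of them. Under upper-quartile scaling 51.4% of calls were higher, against 46.8% in the comparison as reported, and no scaling moved the median gene by more than 0.023. The count beyond 1.2-fold (2361) was 1804 to 2398 with 1 library left out, 4354 against 1.1-fold and 412 against 1.5-fold. The difference between ages, called for 0 genes, was called for 5 in a fit of 4 groups, 8 by DESeq2, 59 with controls 1 to 6, 126 with young controls 1 to 4 alone (added after the data were seen) and 0 to 2 with 1 library left out. The causes were not tested.

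Equal mouse numbers did not pair libraries (correlations of their deviations -0.096 to 0.073), and with a replicate block by mouse number 5960 genes were called, 5500 of them shared with the fit without it, and 3 genes for the difference between ages.

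Among 273 called genes named in the text 248 kept their call in every setting in which they were tested; of 7241 values in all, 93 lost the call, 12 gained it and 0 reversed. The rise in the share of the 10 genes with most reads (1.38 to 2.09 percentage points) and the fall in that of Ttn (-0.827 to -0.649) kept their call in 13 of 13 fits with 1 library left out; the differences in library total (-0.355 to 0.620 M reads) and in genes with at least 1 CPM (17.0 to 77.3) were not called in any. With a minimum of 5 CPM in 4 libraries, which tests fewer genes, 9 F-box genes rose and 2 fell, 6 potassium channel genes rose and 4 fell and 3 cell cycle genes rose and 5 fell. Depth limits genes under 1 CPM, whose intervals are widest. The number of unloaded mice (4) limits small changes, and the split between controls 1 to 4 and 5 to 9 has no label.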

Other observations

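Several gene families outside the comparisons above also held calls in both directions. Of 50 kinesin and dynein genes 7 rose and 14 fell, with Dctn1 of the dynein complex at 0.61 ± 0.06 and Kif1b at -0.48 ± 0.08. Of 51 Rab genes, which direct vesicles, 2 rose and 12 fell, with Rab15 at -1.64 ± 0.22 and Rab7, of late endosomes, at -0.47 ± 0.07. Of 26 integrin genes 2 rose and 6 fell: Itgav fell (-0.77 ± 0.08) and Itga7, the integrin of muscle fibres, rose (0.35 ± 0.10). Of 44 deubiquitinase genes 9 rose and 4 fell, with Usp54 at 0.78 ± 0.14 and Usp12 at -0.68 ± 0.08. Of 19 p53 target genes 5 rose and 4 fell, with Trp53inp1 at 1.05 ± 0.19 and Ccng1 at -0.88 ± 0.08. Over all genes tested 19.1% rose and 21.7% fell, and the share of deubiquitinase genes that rose and those of Rab and integrin genes that fell were near these.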
